A study of Homo sapiens with 4 samples.

Results

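The 66 genes described here encode kinesins and centromere proteins. They were taken from the RefSeq annotation of GRCh38.p14 as protein-coding genes with symbols that start KIF and a digit, KIFC, or CENP and a letter, and they are 66 of 20037 protein-coding genes on chromosomes 1 to 22, X and Y. The 42 kinesins were divided by role into 15 mitotic, 17 transport and 10 other kinesins, and 24 genes carry a CENP symbol. The CENP symbols include CENPE, whose product is itself a mitotic kinesin, and the readthrough gene CENPS-CORT. Chromatin was profiled by CUT&Tag against CHAF1A, a subunit of chromatin assembly factor CAF-1, which places new histones behind replication forks, in RBE cells, an established line of human intrahepatic cholangiocarcinoma. Cells received a control siRNA (2 samples) or a CHAF1A siRNA (2 samples) by lipid transfection and were harvested at 48 hours. No other agent or allele is named, and all samples come from this 1 line. The data are 2 peak lists, 1 per group, called NC and si, which are read here as the control and the CHAF1A siRNA list. In CUT&Tag an antibody directs a transposase to its target, and a peak is a stretch where the sequenced fragments pile up. No list separates the 2 samples of its group, so differences between the lists have no replicate check and no test between conditions was made. A peak list does not measure how much CHAF1A was left, and the knockdown was not checked here. Coordinates are those of hg38.

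Kinesins are motor proteins that walk along microtubules or take them apart. Mitotic kinesins build the spindle, move chromosomes and complete cell division, and their genes are known to be transcribed mainly late in the cell cycle. Transport kinesins carry vesicles, organelles and RNA, most famously along axons and cilia, and do so in resting cells too. Centromere proteins mark the centromere with the histone variant CENP-A, hold it in the constitutive centromere-associated network, and connect it through the kinetochore to the spindle. Late cell cycle genes often carry 2 short promoter elements. One is the CHR, which the DREAM and MYB-MuvB complexes bind, and the other is the CCAAT box, which NF-Y binds.

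The promoters are shown first because most of the peaks within 1 kb of a gene end lay there. The mitotic and transport kinesins also differed in their promoter letters. Sequences are from RefSeq (GRCh38.p14), where 55 of the 66 members were matched. The 11 others are CENPH, CENPL, CENPM, KIF5A, KIF13B, KIF19, KIF21B, KIF26B, KIF27, KIFC2 and KIFC3. For 51 members a start lies at the 5′ boundary of the gene. Each line gives the 120 bases before that start on the gene's strand, 5′ to 3′, with CHR letters (TTTGAA, its reverse complement TTCAAA, or TTTAAA) and CCAAT boxes (CCAAT or ATTGG) in capitals.
KIF11 (chr10:92593010-92593129, plus strand): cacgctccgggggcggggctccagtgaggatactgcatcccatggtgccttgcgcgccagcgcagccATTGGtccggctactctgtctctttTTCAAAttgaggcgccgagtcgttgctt
KIF18A (chr11:28108157-28108276, minus strand): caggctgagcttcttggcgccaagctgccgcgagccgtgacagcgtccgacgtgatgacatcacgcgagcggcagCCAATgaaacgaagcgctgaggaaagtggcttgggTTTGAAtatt
KIF20A (chr5:138178992-138179111, plus strand): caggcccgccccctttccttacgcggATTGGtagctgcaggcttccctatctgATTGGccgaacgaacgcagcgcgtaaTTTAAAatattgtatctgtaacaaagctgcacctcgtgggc
KIF23 (chr15:69414229-69414348, plus strand): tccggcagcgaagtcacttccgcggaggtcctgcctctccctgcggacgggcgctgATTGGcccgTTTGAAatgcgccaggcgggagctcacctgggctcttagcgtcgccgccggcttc
KIF4A (chrX:70289984-70290103, plus strand): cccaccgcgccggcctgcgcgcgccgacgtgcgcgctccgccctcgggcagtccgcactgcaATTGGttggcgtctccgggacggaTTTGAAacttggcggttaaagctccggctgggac
KIF4B (chr5:155013635-155013754, plus strand): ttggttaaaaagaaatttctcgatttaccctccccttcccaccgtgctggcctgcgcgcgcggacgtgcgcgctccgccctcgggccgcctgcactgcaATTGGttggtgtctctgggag
The first 5 of these promoters each have a CHR close to the start and a CCAAT box upstream of it. Counted from the start, with negative numbers upstream, the CHR begins at -28 in KIF11, -10 in KIF18A, -41 in KIF20A, -55 in KIF23 and -34 in KIF4A. KIF4B, an intronless retrocopy of KIF4A, has its CHR at 4, just past the stretch shown, and keeps the CCAAT box, and over 144 aligned promoter bases it is 93.8% identical to KIF4A. The next lines show 3 centromere genes that carry CHR letters.
CENPA (chr2:26785936-26786055, plus strand): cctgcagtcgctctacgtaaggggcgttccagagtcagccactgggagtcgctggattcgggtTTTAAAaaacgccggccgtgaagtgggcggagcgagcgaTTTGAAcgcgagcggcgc
CENPE (chr4:103198344-103198463, minus strand): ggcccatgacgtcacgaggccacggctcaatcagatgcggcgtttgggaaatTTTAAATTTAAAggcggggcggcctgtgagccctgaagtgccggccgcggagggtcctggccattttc
CENPF (chr1:214603075-214603194, plus strand): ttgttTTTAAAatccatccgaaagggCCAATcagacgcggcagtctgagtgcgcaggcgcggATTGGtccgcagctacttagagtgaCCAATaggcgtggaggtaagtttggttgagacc
CENPE, at which no peak was called, has 2 adjoining TTTAAA runs that begin at -68 and -62. CENPF has 3 CCAAT boxes and a CHR at -115 in the stretch shown. The last lines show 2 transport kinesins with strong peaks.
KIF3A (chr5:132737547-132737666, minus strand): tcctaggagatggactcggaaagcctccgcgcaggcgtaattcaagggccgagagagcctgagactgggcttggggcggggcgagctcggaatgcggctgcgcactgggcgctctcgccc
KIF21A (chr12:39443121-39443240, minus strand): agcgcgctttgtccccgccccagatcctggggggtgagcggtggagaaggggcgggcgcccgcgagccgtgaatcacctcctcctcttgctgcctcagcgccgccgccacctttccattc
Neither KIF3A nor KIF21A holds a CHR or a CCAAT box in the stretch shown.

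Across the whole promoter table (250 bases before to 50 after the start, both strands), 11 of 14 mitotic kinesin promoters held a CHR, against 2 of 12 transport kinesins and 7 of 20 centromere genes. Of the 13820 protein-coding promoters searched the same way, 19.9% held one. The window from 100 bases before to 50 after the start was chosen after the positions were seen. It held a CHR in the same number, 11, of mitotic kinesins and in 0 transport kinesins. It held one in 6 of 20 centromere genes and 0 of 5 other kinesins, beside 8.32% of all promoters. A CCAAT box was found in 10 mitotic, 4 transport and 12 centromere promoters, beside 37.1% of all. Both elements together occurred in 9 mitotic kinesins (64.3%), 1 transport kinesin, 5 centromere genes and 8.20% of all promoters. E2F letters (TTTGGCGC, TTTCGCGC, TTTGCCGC or TTTCCCGC, either strand) were in KIF15, KIF25, CENPA, CENPU, CENPS and CENPS-CORT, beside 4.52% of all. In KIF15 the E2F letters adjoin the CHR. CENPVL1 and CENPVL2 have identical promoters, as do CENPS and CENPS-CORT, and each of these genes was counted. The CHR letters are mostly A and T. The median share of G and C bases was 62.0% in mitotic kinesin promoters, 71.8% in transport kinesin promoters and 62.7% in all. Whether base composition accounts for the difference in CHR counts was not tested. A match is a description of letters and does not show that a factor binds.

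**Figure D1:**
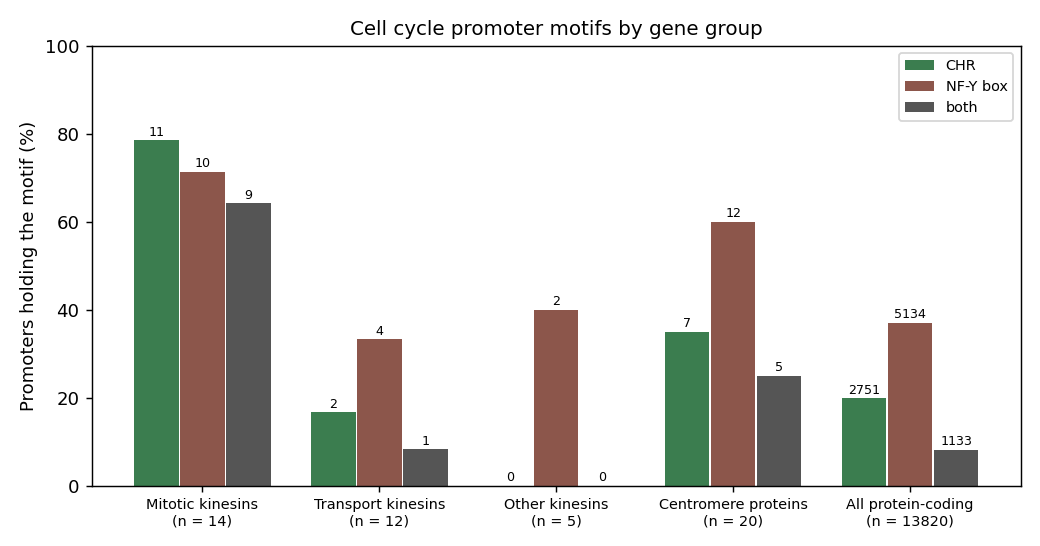
Share of promoters (%) that hold a CHR, an NF-Y box (CCAAT) or both, for 4 gene groups and for all protein-coding genes in the table, with the number of promoters above each bar. Mitotic kinesins stand at 78.6% for the CHR, transport kinesins at 16.7% and all genes at 19.9%.

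The control list held 76313 peaks and the siRNA list 97653 on these chromosomes. At each summit the number of overlapping reads (the pileup) and the expected background were recovered from the deposited fold enrichment and p. The most frequent background, that of the genome at large, was 6.34 reads (control) and 8.49 reads (siRNA list), the latter 1.34 times as high. Over that background a summit needed 20 (control) or 23 reads (siRNA list) to be called. No untargeted library was used here, so CHAF1A binding and open chromatin cannot be told apart. As a check of the cell type, the cholangiocyte markers KRT19, SOX9 and EPCAM had a peak in both lists, KRT7 had a control peak only, and 0 of 4 hepatocyte markers had one in either list. In both lists 2 of 3 fibroblast, 1 of 3 immune and 1 of 2 neuron markers had a peak, and a peak at a gene end is not a measure of expression.

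Most kinesin and centromere genes had a peak within 1 kb of a gene end in both lists. The control list had one at 50 of 66 (75.8%), beside 61.1% of all protein-coding genes, and the siRNA list had one at 52 (78.8%), beside 64.3%. Both lists had a peak at 47 members (all genes 56.2%), the control list alone at 3 (4.90%), the siRNA list alone at 5 (8.07%), and neither at 11 (30.8%). Mitotic and transport kinesins were close in this count. Of 15 mitotic kinesins 12 had a control and 13 a siRNA peak, and of 17 transport kinesins 15 and 14 did. Other kinesins had 5 and 7 of 10, and centromere genes 18 and 18 of 24. At 44 of the 47 genes with a peak in both lists, the strongest peaks of the lists overlapped. Counted against any siRNA peak, the strongest control peak was overlapped at 45 of 50 members (90.0%). The same held for 88.2% of all genes with a control peak, so the members were near the general share.

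**Figure D2:**
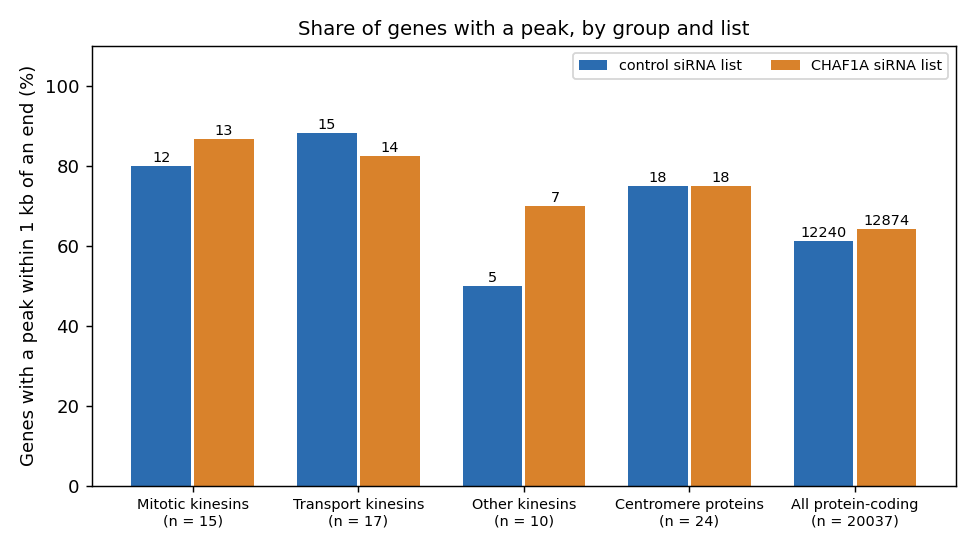
Share of genes (%) with a peak within 1 kb of either gene end, in the control (blue) and the CHAF1A siRNA list (orange), with gene counts above the bars. Mitotic and transport kinesins lie between 80.0% and 88.2%, above the 61.1% and 64.3% of all protein-coding genes.

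The peaks within 1 kb of a gene end lay mostly at promoters rather than at the far ends of the genes. Among the 55 members with a known strand, 41 had a control peak at the 5′ boundary and 4 at the 3′ boundary, beside 58.7% and 13.9% of all genes with a strand. In the siRNA list these counts were 42 and 8, beside 61.2% and 18.3%. In 40 genes the strongest control peak at either end was a 5′ peak, which leaves out KIFC1. Its summit lay at a median of -76 bp from the boundary, where negative is upstream, and 31 of 40 summits lay upstream. The same held for 40 genes of the siRNA list, which leaves out KIFC1 and KIF22, with a median of -52 bp and 23 of 40 upstream. The 1 kb limit decided a few genes. Just inside lay CENPT, whose control peak began 361 bp into the gene and had its summit at 1026 bp. Just outside lay KIF24, with a control peak 1188 bp away, and KIF11, with a control peak 1288 bp away.

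**Figure D3:**
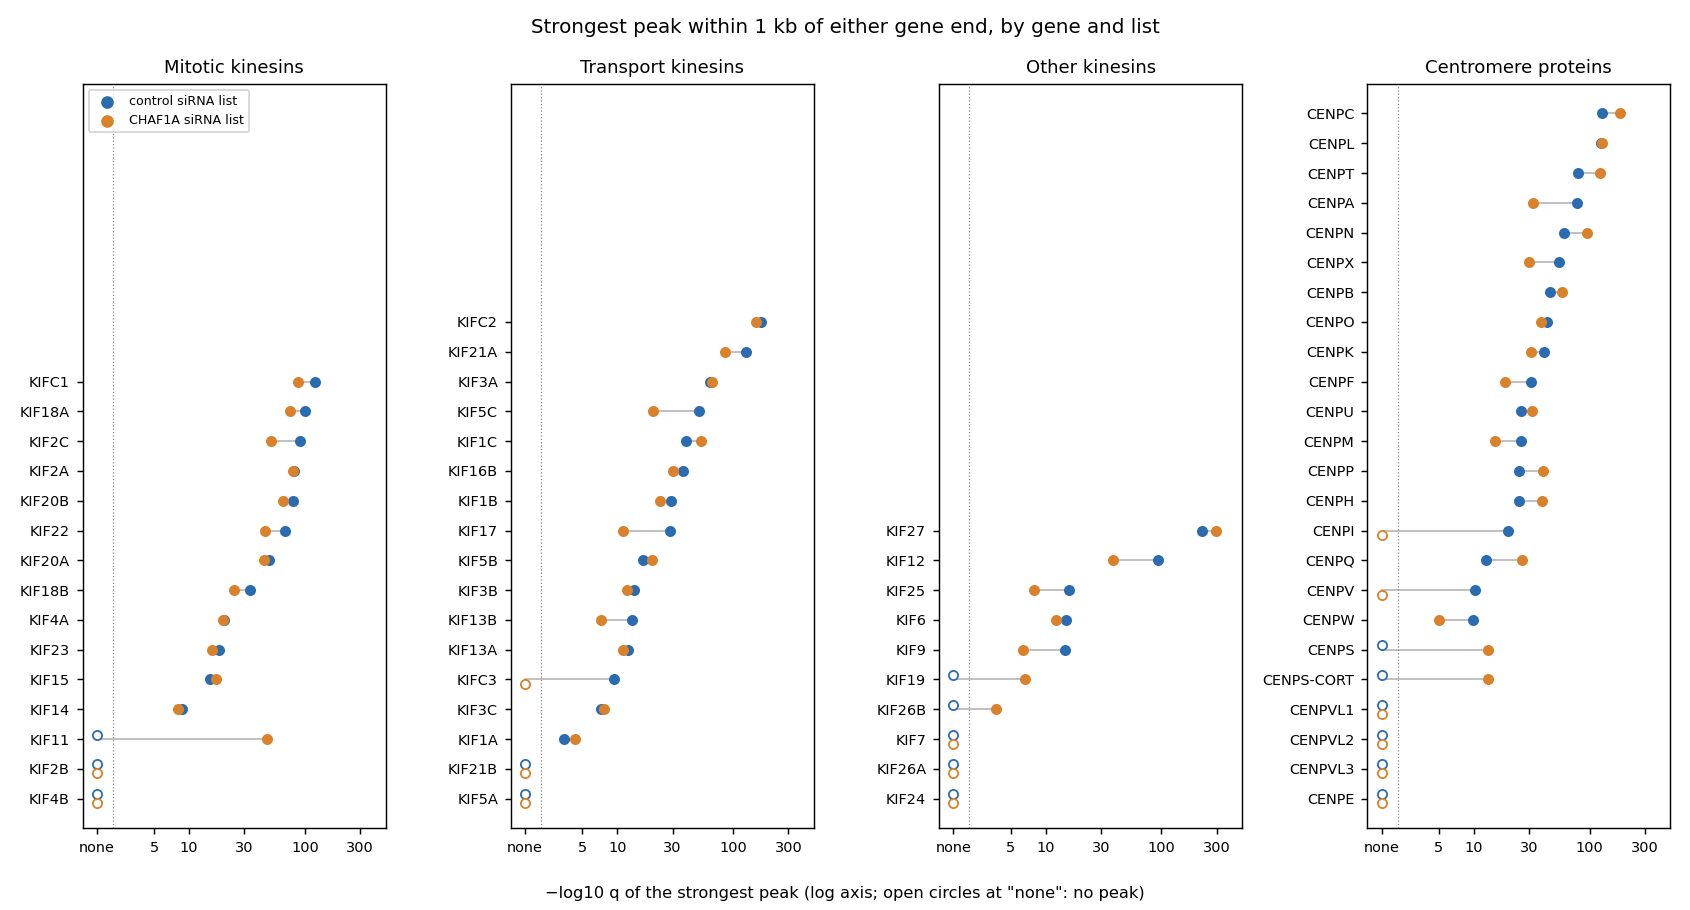
−log10 q (log axis) of the strongest peak within 1 kb of a gene end for each of the 66 genes, in the control (blue) and the CHAF1A siRNA list (orange), with open circles where no peak was called. Values run from 3.43 at KIF1A to 226 at KIF27 in the control list, and 11 genes have open circles for both lists.

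The mitotic kinesins had the highest median strength of the kinesin groups. Their median −log10 q (q is the authors' p adjusted over sites, within 1 list) was 58.2 in the control list, beside 28.3 for transport kinesins and 28.6 for all genes with a peak. The median fold enrichment, the ratio of pileup to background, was 6.60 beside 5.11 and 5.44. KIFC1, a motor directed to the minus end that clusters spindle poles, led the group. Its strongest peak, with a control −log10 q of 121 and a siRNA value of 87.6, lay past its 3′ boundary and within 1 kb of an end of PHF1. A further control peak covered its own 5′ end (chromosome 6, 33391268 to 33392401, gene 33391461 to 33409896), with a pileup of 189 reads and a fold of 9.50. The siRNA peak there (33391277 to 33392175) had 147 reads and a fold of 7.52. The KIFC1 promoter thus had its own site in both lists.

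KIF18A, which restrains chromosome movements at the spindle equator, had a control pileup of 151 reads over a background of 13.1 and a siRNA pileup of 134 over 15.0. Both summits lay at -290 bp from the start, in a region it shares with METTL15. KIF2C, a microtubule depolymerase at centromeres, had 180 reads over 23.4 in the control and 140 over 26.4 in the siRNA list. KIF2A, a related depolymerase of spindle poles and neurons, had 136 over 13.9 and 145 over 16.7. These 3 genes had a peak across the start in both lists, and each siRNA fold was the lower one. The other mitotic kinesins with peaks in both lists were KIF20B, KIF22, KIF20A, KIF18B, KIF4A, KIF23, KIF15 and KIF14, in order of control −log10 q from 78.4 to 8.67. Among them are genes of spindle assembly (KIF15), chromosome movement (KIF22, KIF4A) and the final cut of the cell (KIF14, KIF20A, KIF20B, KIF23). KIF14, the weakest, had pileups of 30 and 33 reads. At KIF22 the strongest siRNA peak lay at the 3′ end, by MAZ, and its 5′ peak had a fold of 7.74 (control) and 4.76 (siRNA list).

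KIF11, the motor that pushes spindle poles apart and the target of several spindle inhibitors, was the only mitotic kinesin with a peak in 1 list alone. The siRNA peak (chromosome 10, 92592900 to 92593345) spanned the start of the gene at 92593130, with a pileup of 109 reads over 17.1, a fold of 6.09 and a −log10 q of 46.7. Put at the control background, that summit would have 81.4 reads over 12.7 and a −log10 p of 37.8, past the 5 at which peaks were called. The nearest control peak was a separate one of 59 reads at 92591671 to 92591842, upstream of the gene. It had a fold of 3.77 and a −log10 q of 15.1, and the siRNA list had no peak at that upstream site. The control list thus showed no peak over the printed KIF11 promoter, where 12 other mitotic kinesins had theirs. KIF2B and KIF4B, both short genes of 2.27 and 4.39 kb, had no peak in either list, and the nearest to KIF2B was 29965 bp from its start in the control list.

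**Figure D4:**
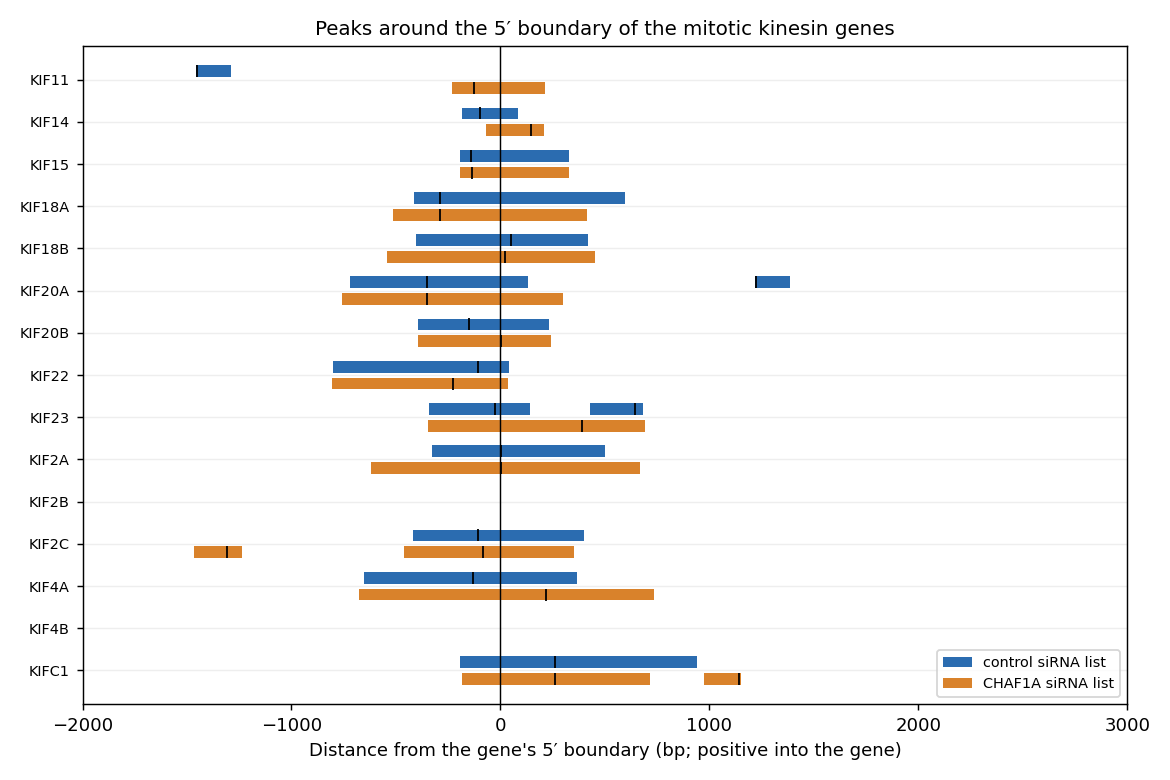
Peak intervals (bars) and summits (black ticks) around the 5′ boundary of the 15 mitotic kinesin genes, control list in blue and CHAF1A siRNA list in orange, by distance in bp. In 12 genes both lists have a peak across or beside the boundary. At the boundary of KIF11 lies a siRNA peak, while its control peak lies farther upstream, and KIF2B and KIF4B have none.

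The transport kinesins covered the whole range of strength. KIFC2, a neuronal motor directed to the minus end, had the highest −log10 q, 173 (control) and 158 (siRNA list), with pileups of 425 and 489 reads. Its peak also lay within 1 kb of an end of TMEM276. KIF21A, an axonal motor that also restrains microtubule growth, had 194 reads over 16.3 in the control and 163 over 20.3 in the siRNA list, with both summits at -308 bp. KIF3A, a subunit of the motor that builds cilia, had 110 over 11.9 and 134 over 17.9. KIF5C, a conventional kinesin heavy chain of neurons, had 81 over 7.56 and 54 over 9.47, and its fold was 9.58 in the control and 5.26 with CHAF1A siRNA. Its broadly expressed paralog KIF5B had folds of 4.93 and 4.71, and the third paralog, KIF5A, had no peak at an end in either list. The 3 heavy chain genes thus ran from no peak at an end to the fourth highest control −log10 q of the group.

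For 2 transport kinesins with a known strand, the peaks were at the 3′ end alone. The KIF17 peak lay within 1 kb of an end of DDOST, and the KIF1A peaks were weak, with −log10 q of 3.43 (control) and 4.29 (siRNA list), and did not overlap each other. KIF1A carries vesicles along axons. The other transport kinesins with a known strand, 10 of 12, had a 5′ peak in each list: KIF1B, KIF1C, KIF3A, KIF3B, KIF3C, KIF5B, KIF5C, KIF13A, KIF16B and KIF21A. KIFC3 was the only transport kinesin in 1 list alone. Its control peak of 66 reads (chromosome 16, 57757358 to 57757547) had a fold of 2.63 and a −log10 q of 9.36. KIF21B and KIF5A had no peak at an end, though 5 and 3 control peaks lay inside these genes.

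Among the other kinesins, KIF27, a relative of the Hedgehog pathway kinesin KIF7, had the highest −log10 q among peaks within 1 kb of a member's boundary. Its −log10 q was 226 (control) and 294 (siRNA list), with folds of 12.0 and 11.4, and the peak was shared with the locus LOC105376335. KIF12 had 205 reads over 29.8 in the control and 147 over 37.5 in the siRNA list. KIF25 and KIF6 had −log10 q of 15.9 and 14.9 in the control and 7.99 and 12.3 in the siRNA list. KIF26B and KIF19 had a siRNA peak only, both with a fold under 2.5 and with 31 and 55 reads. The KIF26B peak did not pass when put at the control background (−log10 p of 4.59), and the KIF19 peak overlapped a control peak that lay past the window. KIF7, KIF24 and KIF26A had no peak at a gene end. For KIF24, whose product sits on centrioles, the annotated start lies 4403 bp inside the boundary, and a peak with a fold of 18.0 (control) and 17.1 (siRNA list) and a −log10 q of 425 and 590 was within 1 kb of that start.

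The centromere genes held the highest fold enrichment among peaks within 1 kb of a member's boundary. CENPC, which anchors the kinetochore on centromeric nucleosomes, had 157 reads over 9.02 in the control and 225 over 13.3 in the siRNA list, a fold of 15.8 in each. Both summits lay at -73 bp from the start (chromosome 4, gene 67468762 to 67545503). CENPL and CENPT, also of the constitutive network, had control −log10 q of 125 and 80.2 and siRNA values of 127 and 124. All but 1 of the 15 network genes had a peak in each list. CENPI was the exception in the siRNA list and CENPS in the control list.

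CENPA, the gene of the centromeric histone, had 142 reads over 16.4 in the control and 102 over 21.7 in the siRNA list, with both summits at -178 bp. Its fold was 8.23 (control) and 4.55 (siRNA list). CENPF, a large protein of the outer kinetochore, had 91 over 17.9 and 69 over 16.8, with both summits at -42 bp. These genes thus kept the position of their summit and had a lower pileup in the siRNA list, although that list had the higher background over the genome. CENPB, which binds centromeric satellite DNA, had 124 reads over 22.9 and 184 over 40.4, and its fold of 4.47 in the siRNA list was below the 5.23 of the control. CENPE had no peak at its ends or anywhere inside the gene, and the nearest peak to its start was 121451 bp away in the control and 121201 bp in the siRNA list. CENPE thus differed from the 16 centromere genes with a peak in both lists. Over the members with a promoter in the table, a CHR was in 16 of 40 with a peak in both lists and 3 of 7 with none, beside 14.9% and 31.5% of all genes.

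In the control list alone, CENPI had 44 reads over 6.34 (chromosome X, 101097999 to 101098221, fold 6.13) and CENPV 36 over 8.10. Put at the siRNA background, these summits would have −log10 p of 29.7 and 16.8. Scaling a called control peak up to the higher background can only raise its −log10 p, so these values are no check of the 2 peaks. The annotated start of CENPI lies 2854 bp inside the boundary, and no peak was within 1 kb of it. In the siRNA list alone, CENPS and CENPS-CORT share a start and 1 peak (chromosome 1, 10430599 to 10430797, 49 reads, fold 3.96), which would have a −log10 p of 12.5 at the control background. They are therefore 1 site counted for 2 genes. CENPVL1, CENPVL2 and CENPVL3, copies of CENPV, had no peak in either list. The promoters of CENPVL1 and CENPVL2 are identical over 300 bases, so reads from these bases cannot be told apart, and KIF4A and KIF4B share part of this limit.

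At sites found in both lists, fold enrichment was usually lower in the siRNA list, and this held for genes in general. For each gene the strongest control peak was compared with the strongest siRNA peak that overlapped it. Of 10794 such genes 80.8% had the lower fold in the siRNA list, with a median log2 ratio (siRNA over control) of -0.22 and the middle 50% between -0.40 and -0.05. All 12 mitotic kinesins had the lower fold in the siRNA list, with a median of -0.34 and a range from -0.70 (KIF22) to -0.12 (KIF15). Of 12 transport kinesins 11 did, with a median of -0.32, the exception being KIF3C at 0.00. All 5 other kinesins did, with a median of -0.49. Of 16 centromere genes 10 did, with a median of -0.17. Within them, 7 of 13 network genes had the lower fold, with a median of -0.04, and CENPA stood at -0.86. The higher siRNA folds among members were those of CENPQ (0.26), CENPH (0.13), CENPN (0.12), CENPU (0.11), CENPP (0.10), CENPC (0.01) and KIF3C. No test was made of the difference between these groups and all genes.

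**Figure D5:**
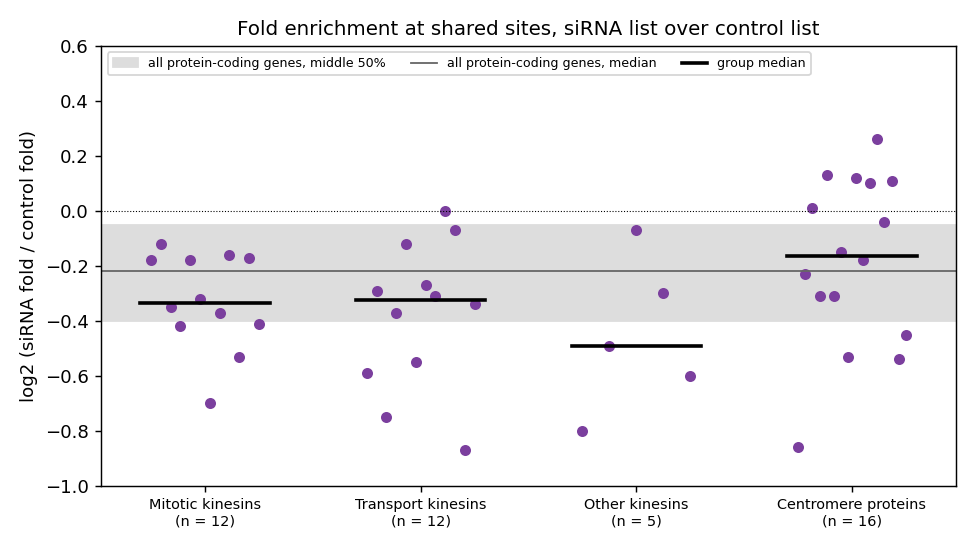
log2 ratio of fold enrichment, CHAF1A siRNA list over control list, for each gene whose strongest control peak was overlapped by a siRNA peak (points), with group medians (black bars). Grey marks the middle 50% of all protein-coding genes, from -0.40 to -0.05. The 12 mitotic kinesins all lie below 0, and 6 of the 16 centromere genes lie above it.

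The pileups gave a second view, with a counting error. The siRNA pileup was divided by the control pileup and by the 1.34 ratio of backgrounds, with a 95% exact binomial interval that covers counting error only. The ratio was 0.536 (0.412 to 0.697) at CENPA and 0.566 (0.408 to 0.783) at CENPF. It was 0.581 (0.462 to 0.728) at KIF2C, 0.663 (0.521 to 0.842) at KIF18A and 0.498 (0.346 to 0.711) at KIF5C. At CENPC it was 1.07 (0.869 to 1.32) and at CENPT 1.19 (0.999 to 1.41). The interval lay wholly below 1 in 5 of 12 mitotic kinesins, 4 of 12 transport kinesins, 3 of 4 other kinesins and 5 of 16 centromere genes, beside 30.9% of all 10255 genes measured this way. It lay wholly above 1 in 0 of these members, beside 2.51% of all. The median was 0.754 for mitotic kinesins, 0.781 for transport kinesins, 0.618 for other kinesins, 0.839 for centromere genes and 0.831 for all genes. The mitotic and transport counts, 5 and 4 of 12, are thus near the share of all genes.

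Many centromere genes had their strongest control peak near an end of another gene as well. Either end of the member and of its neighbour counted, so this is not a count of shared promoters. The strongest control peak of 10 of 18 centromere genes (55.6%) also lay within 1 kb of an end of another protein-coding gene, as it did for 5 of 12 mitotic and 4 of 15 transport kinesins and 29.2% of all genes with a control peak. In the network alone this held for 9 of 14. Such pairs included CENPB with CDC25B, CENPK with PPWD1, CENPN with CMC2, CENPO with PTRHD1, CENPP with NOL8, CENPQ with MMUT, CENPT with NUTF2, CENPX with LRRC45 and CENPM with SMIM45. Among kinesins, KIF15 lay with KIAA1143, KIF20A with BRD8, KIF4A with PDZD11 and KIF9 with KLHL18. A peak in such a region cannot be given to 1 of the genes. KIF11, KIF2C, KIF2A, CENPA, CENPC, CENPF and CENPI had no such neighbour.

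The partners of these proteins were looked at in the same way. Of 27 kinetochore, chromosomal passenger and CENP-A loading genes outside the CENP symbols, 26 had a peak in both lists (96.3%), beside 56.2% of all genes, and ITGB3BP, which encodes CENP-R, had none. MAD1L1, of the spindle checkpoint, had the highest −log10 q, 337 (control) and 358 (siRNA list), with folds of 11.6 and 8.43. HJURP, the chaperone that loads CENP-A, had folds of 5.68 and 3.30, and BUB1, a checkpoint kinase, had 4.45 and 6.32. The fold was lower in the siRNA list at 22 of the 26 (84.6%), beside 80.8% of all genes, with a median log2 ratio of -0.44. The interval of the pileup ratio lay wholly below 1 at 14 of 25 partners, beside the 30.9% of all genes. Of 6 kinesin light chain and adaptor genes, 4 had a peak in both lists (KLC1, KLC2, KLC4, KIFBP), and KLC3 and KIFAP3 had none.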

How the data were processed

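The authors deposited 1 peak list per group, whose names match the sample titles only in part. The submitters' processing notes name MACS2 2.1.2, Bowtie2 2.2.5, fastp 0.20.1, deepTools 3.4.3 and hg38. Pooling of samples and use of a background library are not stated there. The deposited fold is a linear ratio of summit pileup to background, and the authors' p and q are −log10 values. The deposited score follows −log10 p and was not used.

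Left out were 868 control and 886 siRNA peaks on sequences other than chromosomes 1 to 22, X and Y. Fold is (pileup + 1)/(background + 1) and p the Poisson tail, and both were solved together for a whole pileup in 99.1% of control and 99.2% of siRNA peaks, to 0.01 in −log10 p, where −log10 p was under 290. The solver and the overlap search were tested on simulated data. A gene had a peak when one overlapped the 1 kb on each side of either boundary. Positions come from RefSeq GRCh38.p14, and strand from its promoter sequences.

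Members and gene lists were chosen with earlier results of these data known. Named genes were the 4 with the highest control −log10 q per group, every gene with a peak in 1 list only or in neither, and KIF11, CENPA, CENPE and CENPF. Members that only complete a series (such as KIF5B, CENPB or the fold ratios) were named after their values were seen. Alternatives were other thresholds, windows, list lengths and depth. The work used matplotlib 3.10.9, scipy 1.17.1, pandas 2.3.3, numpy 2.4.6 and Python 3.11.15. A few neighbouring and marker genes are not reported here.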

Additional observations from a re-analysis of the deposited data

How the results depend on the processing

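No paired analysis was possible because each list stands for a whole group and neither keeps its samples apart, and for the same reason no sample could be left out in turn. Counts of members with a peak in all, and of mitotic, transport and centromere genes with a peak, stayed within 1.5 times under each alternative tried. With −log10 q of at least 10, 5 members had a control peak only (3 as deposited), 3 a siRNA peak only (5 as deposited) and 3 other kinesins a siRNA peak (7 as deposited). With equal numbers of peaks per list, 5 members had a control peak only. With the 3 kb window, 3 members had a siRNA peak only, KIF11 then having the separate upstream control peak, and 9 other kinesins had a control peak (5 with 1 kb). With the 5′ boundary only, which leaves out the 11 members with no strand, 3 members had a siRNA peak only and 4 other kinesins had a siRNA peak. These counts are small, and each moved by 2 to 4 genes. The lower siRNA fold of mitotic kinesins was found in 12 of 12 at the 5′ boundary, in 11 of 11 pairs with −log10 q of at least 10, and in 12 of 12 when pairs were taken from the strongest siRNA peak, beside 80.8%, 83.1% and 79.1% of all genes. These fold alternatives were added after seeing the data. With 1 list per group, replicate error is unknown.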

Other observations

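Past the 1 kb windows at their ends, several long members held further peaks inside the gene. They are described here by counts and were chosen after the values were seen. Mitotic kinesin genes held 20 control and 26 siRNA peaks there, transport kinesins 52 and 56, other kinesins 43 and 51, and centromere genes 19 and 21. These counts follow gene length in part. Per 100 kb of whole gene, ends included, the control list had 4.41, 3.71, 3.49 and 3.47 peaks in these groups, beside 3.46 for all genes. In the siRNA list the values were 5.48, 3.99, 4.23 and 3.65, beside 4.39. KIF26B, a large kinesin gene of 554 kb, held 13 control and 18 siRNA peaks. KIF26A held 7 control peaks and 1 siRNA peak, and KIFC3 held 10 and 4. KIF4A, a chromokinesin gene, held 1 and 6. KIF26A and KIFC3 thus held fewer siRNA than control peaks although the siRNA list was the longer one. So did some other members, KIF15 and KIF3C among them.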
